A study of Mus musculus with 24 samples.

Results

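The cardiac transcription factors described here are 10 genes that were chosen by name from the 14912 genes of a left ventricle RNA-seq table: the zinc finger genes Gata4 and Gata6, the homeobox gene Nkx2-5, the MADS-box genes Mef2a, Mef2c, Mef2d and Srf, the T-box genes Tbx5 and Tbx20, and the basic helix-loop-helix gene Hand2. All 10 were in the table and all 10 passed the filter on low values that left 14026 genes for testing. The samples were left ventricles of male wild-type C57BL/6J mice, 12 infused with ANG II (angiotensin II, a peptide that raises blood pressure) at 1500 ng/kg/min for 7 days from implanted mini-pumps and 12 infused with saline. They are called the hypertensive-LVH group and the controls here after the study (LVH is left ventricular hypertrophy). Hearts of both groups were flushed with saline before the ventricle was taken, and RNA selected with oligo(dT) was sequenced. The study used 16 biological replicates per group, of which 4 per group were not analysed here. No age is given in the sources used here, and the question was which genes differ between the infused and the control ventricle.

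Cardiac transcription factors of these families bind DNA next to each other at the enhancers and promoters of heart genes, and together they switch on the contractile, ion channel and hormone genes of the cardiac myocyte. GATA4, NKX2-5 and TBX5 are known as partners that bind one another. The MEF2 proteins are held back by class II histone deacetylases until a kinase signal releases them, and SRF (serum response factor) depends on cofactors such as myocardin and the MRTF proteins. In the grown heart the same factors take part in the switch to a fetal gene program under load, and much of their control lies in phosphorylation and binding partners, which mRNA levels do not measure.

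Values are FPKM, the fragments of a gene scaled to the length of its transcript and to the mapped fragments of the sample, but not plain FPKM. Negative values made up 0.766% of the table. Exact ties between samples grouped them into 4 sets (in either group the samples numbered 1 to 3, 4 to 6, 7 to 9 and 10 to 12). For 92.2% of genes, all 10 factors among them, the spacing of the values fitted a shift and scaling within these sets. As recovered from the spacing of the values, this step set a group difference of each factor aside before the scaling. The spread of the adjusted values is therefore not that of plain FPKM. All values of the 10 factors were above 0. Each set holds 3 samples of each group, so every difference is given for the whole series and within the sets. Summed over genes, the samples came to between 460715 and 515185 under ANG II and between 482319 and 567727 under saline, and read depth is unknown. Folds and log2 fold changes are on the log2(FPKM + 1) scale, errors of means are SD with n = 12 per group, and an adjusted p is that of limma with Benjamini-Hochberg adjustment over all 14026 genes. The study's threshold for a differentially expressed gene (DEG) was an adjusted p under 0.05 and an absolute log fold change over 0.5, with no base named, and it was applied here to log2 values. In bulk tissue, fewer cells of a type and less RNA per cell cannot be told apart.

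All 10 factors were present in every ventricle, with 7.71 FPKM as the lowest value of any factor in any sample. In the control group Mef2d had the highest mean level, at 73.6 ± 5.1 FPKM. It was followed by Nkx2-5 at 71.9 ± 9.0, Srf at 61.7 ± 6.95 and Gata4 at 58.3 ± 7.49. Hand2 stood at 43.8 ± 6.85, Mef2a at 39.5 ± 6.42 and Gata6 at 30.8 ± 3.35. The lowest levels were those of Tbx20 at 19.7 ± 2.58, Mef2c at 17.0 ± 2.66 and Tbx5 at 16.8 ± 7.61. In the mean over all samples Mef2c stood lowest at the 73.6 percentile of the mean levels of all 14912 genes in the table and Mef2d highest at the 93.3 percentile. FPKM is a level per transcript length, but each factor was also shifted and scaled by itself, so the order is that of the adjusted values. From Mef2d to Tbx5 the control means spanned 4.39-fold, and from Mef2d to Mef2c the ANG II means spanned 4.04-fold. Several neighbours in the order did not differ beyond their spread. Mef2d lay above Nkx2-5 in 7 of 12 control samples, Srf above Gata4 in 9, Hand2 above Mef2a in 8 and Mef2c above Tbx5 in 9. In contrast, Nkx2-5 lay above Srf, Mef2a above Gata6 and Gata6 above Tbx20 in 12 of 12 control samples. In the hypertensive-LVH group Tbx20 lay above Mef2c in 12 of 12 samples, against 10 of 12 in the control group.

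**Figure D1:**
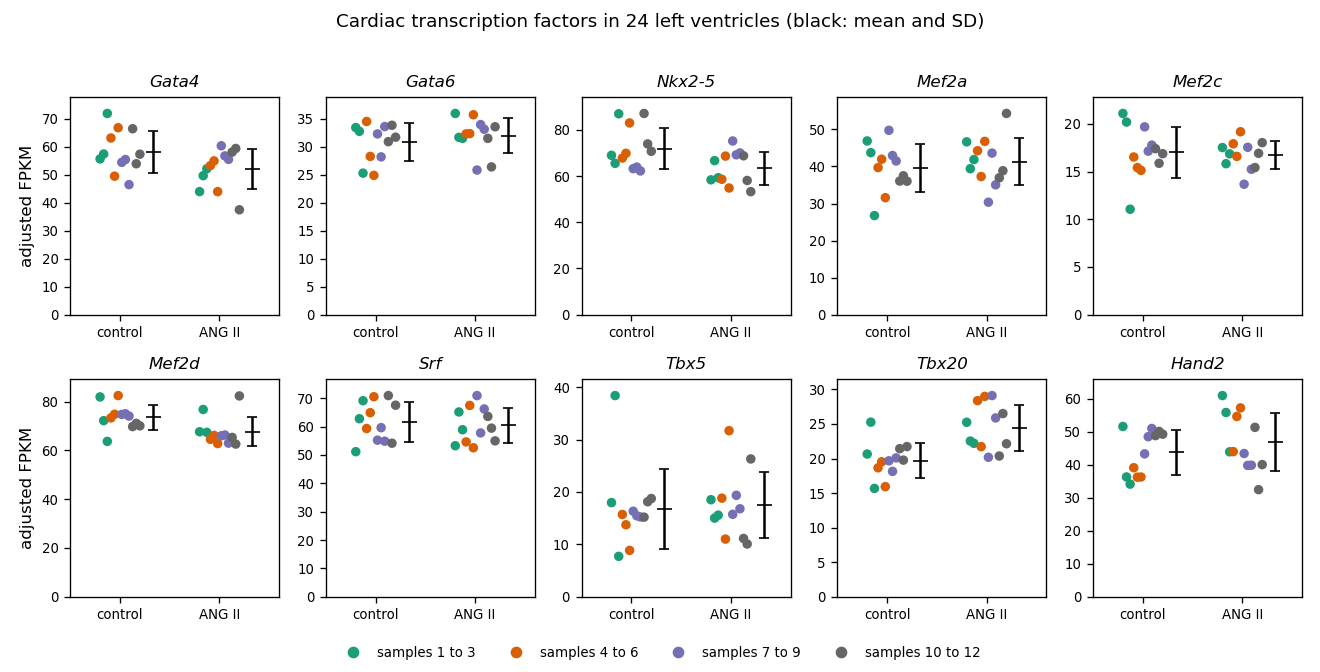
Adjusted FPKM (y axis, from 0) of each factor in the 12 control and 12 ANG II samples, with points coloured by set of samples and black bars for the mean and SD. Tbx20 is the gene whose 12 ANG II points all lie above the control median of 19.7, and Tbx5 has single high points in control 2 (38.4) and ANG II 6 (31.7).

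After 7 days of ANG II, 1 of the 10 factors was higher and 2 were lower. Tbx20 rose by 0.30 on the log2 scale, Nkx2-5 fell by 0.18 and Mef2d fell by 0.12, and the other 7 did not pass the test. A call of this kind was frequent in the table, since 33.5% of all genes tested passed an adjusted p under 0.05, 20.9% as higher and 12.6% as lower. A count of 3 of 10 is near the background. As a DEG 0 of 10 counted, because no absolute log2 fold change reached 0.5, against 5.92% of all genes. In 0 of 10 did the groups separate without overlap, which was seen for 0.756% of genes. The intervals of all 10 log2 fold changes lay within 0.5 of 0 in both directions. With the set of samples as a term 1 of 10 factors passed (27.9% of all genes), before the adjustment 1 (25.9%) and without samples 4 to 6 0 of 10 (20%, and 1 factor at an unadjusted p under 0.05). The factor was Tbx20 each time.

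**Figure D2:**
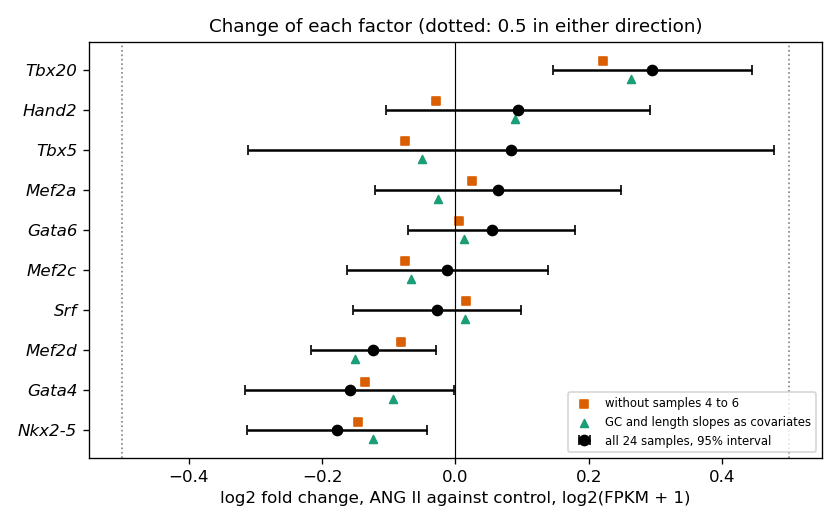
Log2 fold change of each factor (x axis, ANG II against control on log2(FPKM + 1)) with its 95% interval for all 24 samples, the value without samples 4 to 6 as squares and the value with the GC and length slopes of the samples as covariates as triangles. Tbx20 lies right of 0 at 0.30 and Mef2d, Gata4 and Nkx2-5 left of 0 at -0.12, -0.16 and -0.18, and dotted lines mark 0.5 in either direction.

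Tbx20 (GRCm38 chr9:24718138-24774303, as for all genes by the GENCODE annotation) encodes a T-box factor that the grown ventricular myocyte needs to keep its contractile and calcium handling genes on. In the control group its lowest, median and highest values were 15.7, 19.7 and 25.3 FPKM. In the hypertensive-LVH group they were 20.2, 23.9 and 29.1 FPKM. All 12 ANG II samples lay above the control median and 5 lay above the highest control sample. Controls 1, 2, 10 and 12, at 20.6, 25.3, 21.4 and 21.7 FPKM, lay inside the ANG II range. The mean went from 19.7 ± 2.58 to 24.4 ± 3.32 FPKM. This was a 1.23-fold increase (95% interval 1.11 to 1.36, log2 fold change 0.30 ± 0.07 SE, adjusted p = 0.00327). The difference was positive in 4 of 4 sets, at 0.20, 0.52, 0.35 and 0.12 on the log2 scale for samples 1 to 3, 4 to 6, 7 to 9 and 10 to 12. The largest was that of samples 4 to 6 (adjusted p = 0.0219 within that set). Of all genes, 34.6% had the same direction in all 4 sets. Before the adjustment, as far as within-set differences could be recovered from the spacing of the values, Tbx20 was higher by 21.6% ± 5.57 (SE, adjusted p = 0.00854). In the adjusted values, exchanging labels only within the sets gave p = 0.00179 over all 160000 relabelings (permutation test, two-sided, n = 12 per group). That p is not exact, because the adjustment used the groups. The same test on the values before the adjustment gave p = 0.00171. With the set of samples as a term the adjusted p was 0.00747, and in all 24 fits that left out 1 sample it stayed between 0.000868 and 0.0071. Without samples 4 to 6 the log2 fold change was 0.22 and the adjusted p was 0.0567.

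The RefSeq table of promoters (GRCm38.p6, 250 bases before to 50 after a start site) had a window for 7 of the 10 genes. The 250 bases before the start of Tbx20 and Mef2d, 2 of the genes that passed the test, and of Srf, whose own binding site occurs in its promoter, are given with 30 bases around the start of Mef2a. Capitals mark letters that matched one of 6 searched motifs.
Tbx20, GRCm38.p6 chr9:24774304-24774553, strand minus: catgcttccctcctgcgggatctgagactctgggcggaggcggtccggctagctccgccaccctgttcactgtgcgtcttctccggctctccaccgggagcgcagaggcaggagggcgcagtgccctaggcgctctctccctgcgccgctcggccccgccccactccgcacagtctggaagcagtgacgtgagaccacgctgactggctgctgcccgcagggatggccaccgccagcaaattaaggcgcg
Mef2d, GRCm38.p6 chr3:88142122-88142371, strand plus: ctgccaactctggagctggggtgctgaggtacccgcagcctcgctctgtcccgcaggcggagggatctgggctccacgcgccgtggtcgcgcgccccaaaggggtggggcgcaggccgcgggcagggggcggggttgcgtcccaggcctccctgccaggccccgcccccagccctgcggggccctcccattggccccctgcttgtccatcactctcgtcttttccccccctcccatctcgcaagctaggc
Srf, GRCm38.p6 chr17:46556163-46556412, strand minus: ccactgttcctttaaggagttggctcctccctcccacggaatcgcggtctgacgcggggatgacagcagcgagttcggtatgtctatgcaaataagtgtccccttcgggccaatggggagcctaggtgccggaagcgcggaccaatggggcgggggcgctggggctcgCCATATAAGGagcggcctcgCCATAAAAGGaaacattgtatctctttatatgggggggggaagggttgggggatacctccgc
Mef2a, GRCm38.p6 chr7:67372841-67372870, strand minus: ggcctgactcCTAAAAATAGccccggtgtg
The motifs were a GATA site (AGATAA, in 11.2% of all 32851 windows), an NKX2-5 site (TNAAGTG, 11.5%), a T-box site (AGGTGTGA, 1.28%), a HAND E-box (CATCTG, 17.2%), the CArG box bound by SRF (1.63%) and the MEF2 site (3.19%), each searched on both strands, and no 2 matches overlapped. The Srf window held 2 CArG boxes, starting 82 and 62 bases before the start, and the Mef2a window held 1 MEF2 site that begins 2 bases before the start. No match was found in the windows of Tbx20, Mef2d and Nkx2-5, which says only that these letters are not in those 300 bases. The Hand2 window held 1 GATA site and 1 E-box, and 1 of the 3 Mef2c windows held an E-box.

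Nkx2-5 (chr17:26838664-26845009), the homeobox factor that marks cardiac progenitors and stays on in grown myocytes, was lower in the hypertensive-LVH group. It had a lowest, median and highest value of 62.2, 69.4 and 87.1 FPKM in the control group. Under ANG II these were 53.2, 63.0 and 75.2 FPKM. Of the 12 ANG II samples 10 lay below the control median and 6 below the lowest control sample, and 3 control samples (3, 6 and 10) lay above the highest ANG II sample. The mean went from 71.9 ± 9.0 to 63.4 ± 7.09 FPKM. This was a fold of 0.884 (95% interval 0.805 to 0.971, log2 fold change -0.18 ± 0.07 SE, adjusted p = 0.0398). Within the sets the log2 difference was -0.25, -0.27, 0.18 and -0.36, so samples 7 to 9 went the other way. The call was lost with the set as a term (adjusted p = 0.0624) and without samples 1 to 3, 4 to 6 or 10 to 12 (0.146, 0.201 and 0.25). It was lost with a Wilcoxon rank-sum test (0.104) and before the adjustment (-14.1% ± 5.6 SE, adjusted p = 0.0651). It was also lost in 10 of 24 fits that left out 1 sample. These samples were ANG II 1, 3, 4, 6, 11 and 12 and control 3, 6, 10 and 11. The 24 fits gave log2 fold changes of -0.20 to -0.15 and a largest adjusted p of 0.0726.

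The GATA factors, zinc finger proteins that bind the same DNA letters and share roles in heart formation, did not pass the test. Gata4 (chr14:63198922-63271692) had a lowest, median and highest value of 46.5, 56.6 and 72.0 FPKM in the control group. The ANG II samples gave 37.5, 54.2 and 60.4 FPKM. Of the controls 4 lay above the highest ANG II sample, and 3 ANG II samples lay below the lowest control sample. Its log2 fold change was -0.16 (95% interval -0.32 to -0.0021, adjusted p = 0.107), negative in 3 of 4 sets (-0.33, -0.23 and -0.22) and 0.14 in samples 7 to 9. Without samples 7 to 9 it was -0.26 with an adjusted p of 0.0343, and with quantile normalization the adjusted p was 0.0481. Gata6, on chromosome 18, had a lowest, median and highest value of 24.9, 32.0 and 34.5 FPKM in the control group. Under ANG II these were 25.8, 32.3 and 35.9 FPKM. The Gata6 groups overlapped almost fully, and the log2 fold change was 0.05 (95% interval -0.07 to 0.18, adjusted p = 0.509). Its sets gave 0.12, 0.20, -0.02 and -0.08. The log2 ratio of Gata4 to Gata6 within a sample went from 0.90 ± 0.29 to 0.68 ± 0.32, a difference of -0.21 (95% interval -0.47 to 0.05, permutation p = 0.101, two-sided). A scaling shared by a whole sample nearly cancels in such a ratio, but the scaling of each gene within each set does not.

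Among the MEF2 genes, which encode the MADS-box factors of muscle, Mef2d was lower and Mef2a and Mef2c did not pass the test. Mef2d (chr3:88142372-88172086), the form known to mediate pathological growth under pressure load in mouse knockouts, had a lowest, median and highest value of 63.7, 73.7 and 82.5 FPKM in the control group. The ANG II samples gave 62.6, 66.1 and 82.3 FPKM. Of the 12 ANG II samples 10 lay below the control median, while ANG II 12 reached nearly the highest control value. The mean went from 73.6 ± 5.1 to 67.6 ± 5.97 FPKM. This was a fold of 0.918 (95% interval 0.86 to 0.98, log2 fold change -0.12 ± 0.05 SE, adjusted p = 0.0398). In the adjusted values Mef2d was lower in 4 of 4 sets, with log2 differences of -0.03, -0.25, -0.19 and -0.02, a sameness of direction that 34.6% of all genes showed. With the set as a term the adjusted p was 0.0638, without samples 4 to 6 it was 0.318 and without samples 7 to 9 it was 0.203. With quantile normalization it was 0.0528. Before the adjustment the difference was -6.96% ± 4.22 (SE, adjusted p = 0.214). Within the sets it was then -1.54%, -16.9%, -10.3% and 0.84%, so samples 10 to 12 were not lower. In 16 of 24 fits that left out 1 sample (ANG II 1 or 4 to 11, control 1 or 4 to 9) the call was lost. Over all 24 the log2 fold change was -0.15 to -0.11, with a largest adjusted p of 0.0725.

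Mef2a (chr7:67231163-67372858), a MEF2 form of the postnatal heart, had a lowest, median and highest value of 26.7, 40.6 and 49.8 FPKM in the control group. Under ANG II these were 30.4, 40.6 and 54.3 FPKM. Its log2 fold change was 0.06 (95% interval -0.12 to 0.25, adjusted p = 0.604), and in these ventricles its level was below that of Mef2d in every control and every ANG II sample. Mef2c (chr13:83504034-83667080), needed for the looping of the embryonic heart tube, had a lowest, median and highest value of 11.0, 17.0 and 21.1 FPKM in the control group. The ANG II samples gave 13.7, 16.9 and 19.2 FPKM, with a log2 fold change of -0.01 (95% interval -0.16 to 0.14, adjusted p = 0.91). The lowest Mef2a and the lowest Mef2c value were both those of control 3. Within the sets the log2 difference was 0.16, 0.18, -0.30 and 0.22 for Mef2a and -0.0067, 0.18, -0.22 and 0.0043 for Mef2c. Relative to Mef2d, Mef2a was higher under ANG II, at a log2 ratio of -0.71 ± 0.19 against -0.89 ± 0.21 in the control group. The difference was 0.19 (95% interval 0.01 to 0.36, permutation p = 0.0331, two-sided, 1 of 5 ratios tested, with a Benjamini-Hochberg adjusted p of 0.165 over the 5). The ratio was above the control median in 10 of 12 ANG II samples. The difference was -0.11 in samples 7 to 9 against 0.19, 0.43 and 0.24 in the other sets. The permutation p was 0.0701, 0.236 and 0.142 without samples 1 to 3, 4 to 6 and 10 to 12. The ratios of Mef2a to Mef2c and of Mef2c to Mef2d differed by 0.08 (95% interval -0.02 to 0.18, permutation p = 0.133) and 0.11 (95% interval -0.04 to 0.26, permutation p = 0.144).

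**Figure D3:**
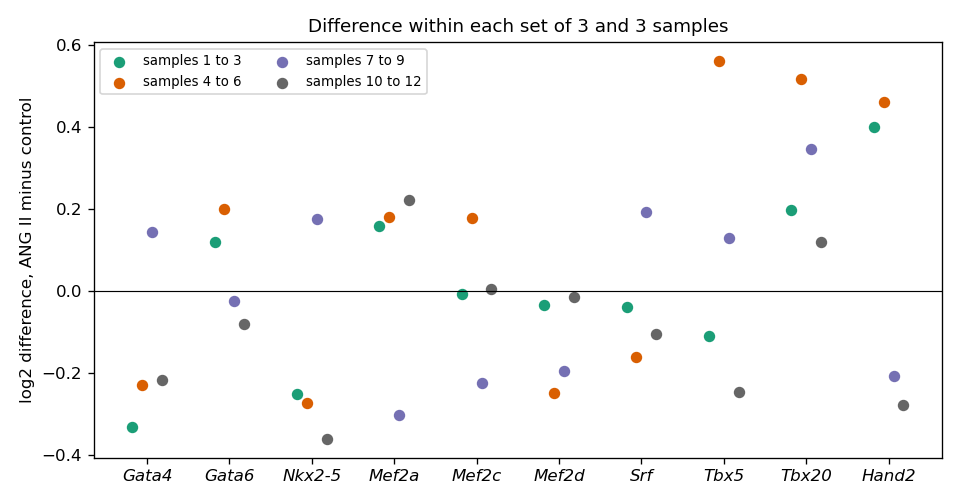
Log2 difference between the means of the 3 ANG II and the 3 control samples of each set (y axis, adjusted values) for each factor (x axis), coloured by set. Tbx20 lies above 0 in 4 of 4 sets (0.12 to 0.52) and Mef2d below 0 in 4 of 4, as 34.6% of all genes kept 1 direction. Nkx2-5, Gata4, Srf and Mef2a have samples 7 to 9 on the other side of 0 from the rest.

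Srf (chr17:46548329-46556175), the MADS-box factor that reads growth and actin signals through the CArG box, did not pass the test. It had a lowest, median and highest value of 51.1, 61.2 and 70.9 FPKM in the control group. Under ANG II these were 52.5, 59.2 and 70.9 FPKM, so the ranges were nearly the same. The log2 fold change was -0.03 (95% interval -0.15 to 0.10, adjusted p = 0.746), with 0.19 in samples 7 to 9 and -0.04, -0.16 and -0.11 in the others. Of 27 genes known as SRF targets 14 rose and 0 fell (51.9% called, against 33.5% of all genes), with a median log2 fold change of 0.33 beside 0.05 over all genes. Acta1, the skeletal alpha actin that belongs to the fetal program, went from 469 ± 342 to 1580 ± 760 FPKM (log2 fold change 1.96 ± 0.37 SE, adjusted p = 0.000311). Ctgf, a matricellular growth factor, went from 58.5 ± 41.4 to 137 ± 33.3 FPKM (adjusted p = 0.0142). Tagln, an actin-binding protein of smooth muscle, went from 17.5 ± 11.0 to 37.8 ± 21.0 FPKM (adjusted p = 0.0459). Ctgf and Tagln each had 1 negative value among the controls. Without samples 4 to 6 the list had 8 genes that rose and 1 that fell, and Tagln was among those lost (adjusted p = 0.538). Several of these targets are also genes of smooth muscle cells. Of 10 smooth muscle and pericyte markers 3 rose and 2 fell (median 0.17, and 0 rose without samples 4 to 6). Their summed level was 280 to 482 FPKM in the control group and 353 to 536 in the hypertensive-LVH group. The part of those cells in the counts was not tested.

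Calls among the coactivators and corepressors around these factors were no more frequent than among all genes. Of 20 coactivators and partners 4 rose and 0 fell (20% called, against 33.5% of all genes), with a median log2 fold change of 0.10. Csrp2, a LIM protein that bridges SRF and GATA factors in smooth muscle, went from 18.2 ± 9.1 to 44.3 ± 17.1 FPKM (log2 fold change 1.40 ± 0.32 SE, adjusted p = 0.00178). Wwtr1, the YAP relative TAZ, went from 19.4 ± 1.76 to 25.6 ± 3.0 FPKM (adjusted p = 4.44e-05). Mkl1, the SRF cofactor MRTF-A, went from 5.04 ± 0.958 to 6.64 ± 1.1 FPKM (adjusted p = 0.00395, and 0.121 without samples 4 to 6). Among 19 corepressors and inhibitors 1 rose and 2 fell (15.8% called against 33.5%, median 0.05), and 8 fell with quantile normalization. Ankrd1, a stretch-responsive ankyrin repeat protein of the myocyte, went from 433 ± 172 to 1100 ± 268 FPKM (log2 fold change 1.44 ± 0.22 SE). Hopx, the homeodomain-only protein that antagonises SRF, went from 152 ± 23.3 to 84.2 ± 21.3 FPKM (log2 fold change -0.87 ± 0.12 SE). Zfpm2, which encodes FOG2, the cofactor that represses GATA4, went from 5.11 ± 0.557 to 4.37 ± 0.667 FPKM (adjusted p = 0.0271).

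Of 15 kinases and small GTPases upstream of the factors 3 rose and 3 fell (40% called, near the 33.5% of all genes, median 0.10). Rock2, Rock1 and Rhoa, which pass actin signals towards the SRF cofactors, were higher by 0.22, 0.19 and 0.14 on the log2 scale. Of these, 0 of 3 passed the test under median-ratio scaling, which divides each sample by its median ratio to the other samples. Prkaca, the catalytic subunit of protein kinase A, Mapk14, which encodes p38 alpha, and Camk2g had log2 fold changes of -0.29, -0.23 and -0.15, and all 3 were lower. Relatives of the 10 factors from the same families gave 0 calls among 9 tested with limma (median 0.08, 0 at an unadjusted p under 0.05, and 0 with a Wilcoxon test).

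Known targets of the GATA, NKX2-5 and TBX factors moved in both directions. Of 23 such genes 4 rose and 8 fell (52.2% called, against 33.5% of all genes), with a median log2 fold change of -0.11, against 5 and 4 with a median of 0.03 under quantile normalization. Nppa, which encodes atrial natriuretic peptide, had a mean of 2050 ± 1080 FPKM in the hypertensive-LVH group and 432 ± 1482 in the control group, where 7 values were negative and were set to 0 for the test (adjusted p = 0.000413) and control 2 stood at 4953. Myh7, the beta myosin heavy chain of the fetal program, went from 83.0 ± 83.0 to 415 ± 163 FPKM (adjusted p = 0.00464, with 3 negative control values). Edn1, which encodes endothelin-1, went from 2.51 ± 0.735 to 4.56 ± 1.18 FPKM. Tnni3, the cardiac troponin I, fell from 6458 ± 618 to 4211 ± 609 FPKM (log2 fold change -0.63 ± 0.08 SE). Myl2, the ventricular regulatory light chain, fell from 13232 ± 1602 to 9452 ± 1871, and Irx4, a factor of ventricular identity, fell from 19.6 ± 2.84 to 15.0 ± 3.05. Of 15 MEF2 targets 2 rose and 4 fell (40% called, near the 33.5% of all genes, median 0.07). Des (desmin) went from 1164 ± 79.3 to 1655 ± 192 FPKM and Xirp2 from 87.0 ± 17.0 to 116 ± 16.7. In contrast, Mb (myoglobin), Ckm (muscle creatine kinase) and Slc2a4 (the glucose transporter GLUT4) had log2 fold changes of -0.59, -0.56 and -0.47.

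Tbx5 (chr5:119832668-119885219), the T-box factor that is higher in atria and in conduction tissue than in working ventricle, varied most among the 10 factors. It had a lowest, median and highest value of 7.71, 15.6 and 38.4 FPKM in the control group. The ANG II samples gave 10.1, 16.3 and 31.7 FPKM. The span was 4.98-fold over all samples against 1.32-fold to 2.03-fold for the other 9. The coefficient of variation was 45.3% in the control group and 36.0% in the hypertensive-LVH group. The log2 fold change was 0.08 (95% interval -0.31 to 0.48, adjusted p = 0.76). The sets gave -0.11, 0.56, 0.13 and -0.25. The ratio of Tbx5 to Tbx20 differed by -0.21 on the log2 scale (95% interval -0.55 to 0.12, permutation p = 0.209).

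The 2 highest Tbx5 values belonged to control 2 and ANG II 6, which also had the highest values of 6 of the 7 atrial markers in the table. Control 2, with 38.4 FPKM of Tbx5, held 1443 FPKM of Myl7 (the atrial regulatory light chain), 1257 of Myl4 and 453 of Sln (sarcolipin). ANG II 6, with 31.7 FPKM of Tbx5, held 1040, 967 and 296. In the other 22 samples Myl7 ranged from -75.4 to 220, Myl4 from -68.4 to 371 and Sln from -27.8 to 67.5, each with 7 negative values. The exception was Upk3b, at 25.7 FPKM in control 2 but at 2.53 in ANG II 6, within the -1.21 to 18.2 of the other samples. ANG II 12 had 26.3 FPKM of Tbx5 and a Myl7 value within that range. The 7 atrial markers gave 0 calls between the groups with limma (0 at an unadjusted p under 0.05, and 0 with a Wilcoxon test). Their median log2 fold change was 0.91, and -0.09 without samples 4 to 6. Their summed level ran from -141 to 3420 FPKM in the control group and from -156 to 2482 in the hypertensive-LVH group. Without control 2 and ANG II 6 the log2 fold change of Tbx5 was 0.12 (adjusted p = 0.584) and that of Tbx20 was 0.30 (adjusted p = 0.00176). Nkx2-5 and Mef2d then had adjusted p of 0.0574 and 0.0689. How much of the Tbx5 level came from atrial tissue was not tested.

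**Figure D4:**
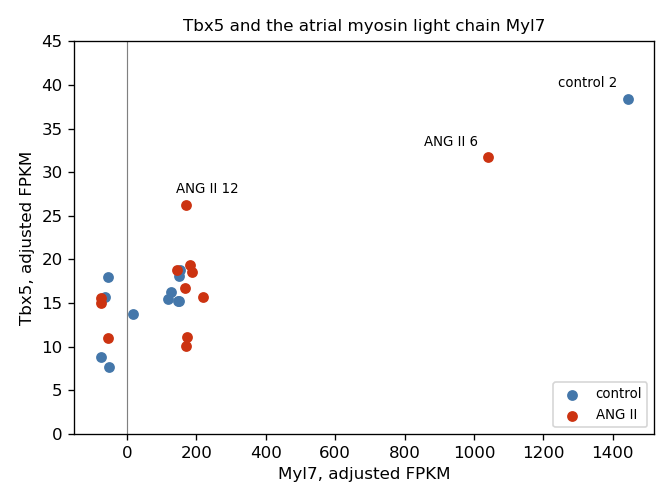
Tbx5 (y axis) against the atrial light chain Myl7 (x axis), both in adjusted FPKM, in the 12 control (blue) and 12 ANG II (red) samples. Control 2 and ANG II 6 stand apart on both axes, and ANG II 12 is high for Tbx5 at 26.3 FPKM with Myl7 among the other samples.

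Hand2 (chr8:57320983-57324633), the helix-loop-helix factor of the developing right ventricle and outflow tract, did not pass the test over the whole series. It had a lowest, median and highest value of 34.2, 46.0 and 51.7 FPKM in the control group. Under ANG II these were 32.5, 44.0 and 61.0 FPKM, with 4 ANG II samples (1, 2, 5 and 6) above the highest control sample. The log2 fold change was 0.09 (95% interval -0.10 to 0.29, adjusted p = 0.464). The sets split evenly, with 0.40 and 0.46 in samples 1 to 3 and 4 to 6 and -0.21 and -0.28 in samples 7 to 9 and 10 to 12. Within samples 4 to 6 the adjusted p was 0.0169, and 27.1% of all genes passed there. In the annotation 5 of the 10 factors overlap other genes, at least 1 of them on the opposite strand in each case. These are Hand2 (with Hand2os1), Mef2d (with an antisense gene), Gata6 (with a noncoding transcript), Srf (with a long noncoding RNA and a microRNA) and Mef2a (with Lysmd4 and 2 unconfirmed genes). Reads in those stretches cannot be assigned for certain, since the library protocol names no strand marking.

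Across samples the factors rose and fell in opposite blocks. After the mean of each group within each set was removed, Nkx2-5, Gata4 and Srf correlated positively with one another (Pearson r of 0.70 for Nkx2-5 and Gata4, 0.73 for Nkx2-5 and Srf and 0.58 for Gata4 and Srf, n = 24 samples). Mef2a, Mef2c, Tbx5, Tbx20 and Gata6 formed another block, with 0.87 for Mef2a and Mef2c, 0.81 for Mef2a and Tbx5 and 0.53 for Gata6 and Tbx20. Between the blocks r was negative, down to -0.82 for Nkx2-5 and Tbx5. These coefficients are descriptions, since the points share libraries and their base composition. Each sample was given a GC slope, the change of its log2 values per 10 percentage points of transcript GC over 11406 other genes, which ranged from -0.19 in ANG II 12 to 0.14 in control 3. The blocks followed this slope, with r of 0.79 for Nkx2-5, 0.77 for Gata4 and 0.72 for Srf. It was -0.89 for Mef2a, -0.78 for Tbx5, -0.78 for Gata6, -0.64 for Mef2c and -0.61 for Tbx20. Mef2d (-0.34) and Hand2 (-0.09) followed the GC slope least. With a like slope for transcript length, r was 0.85 for Mef2c, 0.76 for Mef2a, 0.66 for Mef2d, 0.61 for Tbx5 and 0.56 for Tbx20. It was 0.48 for Gata6, 0.14 for Hand2, -0.38 for Srf, -0.50 for Gata4 and -0.56 for Nkx2-5. Transcript GC was highest in Nkx2-5 (67.1%) and Srf (64.4%) and lowest in Mef2c (40.8%), Mef2a (42.0%) and Tbx20 (42.3%). Gata4 and Gata6, at 57.4% and 56.5%, had opposite signs of r with the GC slope. An absolute r over 0.5 with the GC slope was seen for 8 of the 10 factors and for 41.0% of 11458 genes.

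**Figure D5:**
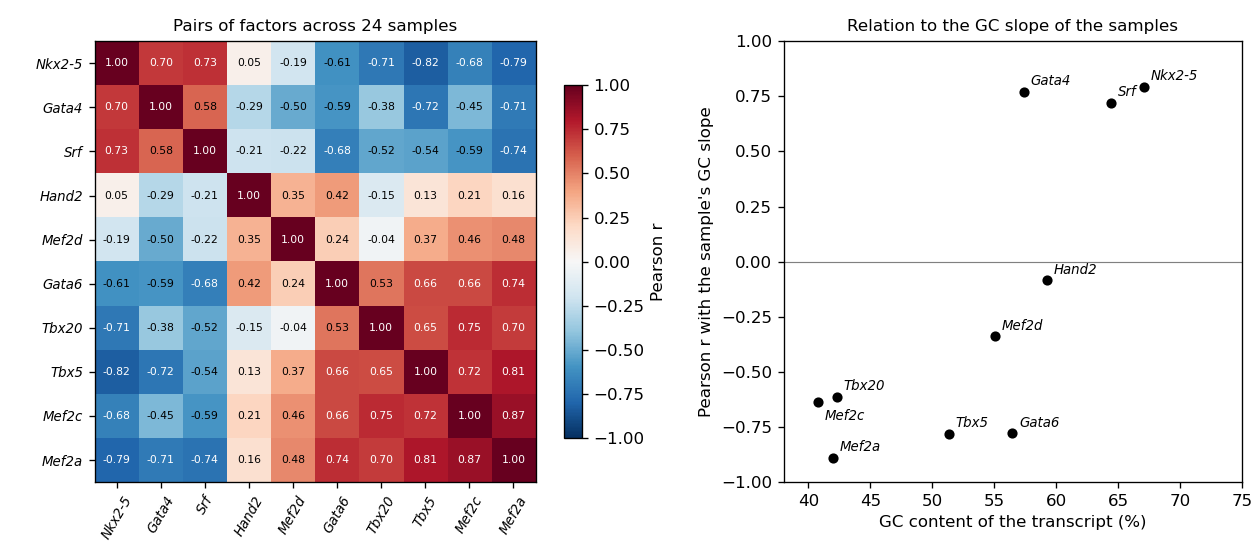
Pearson r between the factors across 24 samples after the mean of each group within each set was removed (left, colour from -1 to 1), and r of each factor with the GC slope of the samples against the GC content of its transcript in % (right). Nkx2-5, Gata4 and Srf form a block with positive r and lie at 0.72 to 0.79 on the right, and Mef2a lies lowest at -0.89.

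The GC slopes of the groups overlapped, with a mean of -0.02 ± 0.09 in the hypertensive-LVH group and 0.02 ± 0.06 in the control group. With the GC slope and a like slope for transcript length as covariates, Tbx20 had a log2 fold change of 0.26 (adjusted p = 0.00616), Mef2d of -0.15 (adjusted p = 0.00242) and Nkx2-5 of -0.12 (adjusted p = 0.0483), and 36.3% of all genes passed. With the set of samples added to these terms, the adjusted p was 0.0133 for Tbx20, 0.0065 for Mef2d and 0.0768 for Nkx2-5. In the same fit with the slopes alone Gata4 had a log2 fold change of -0.09, and Mef2a, Tbx5 and Srf changed sign to -0.03, -0.05 and 0.01.

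The genes whose pattern was most like that of a factor, by r over the same 24 samples, are given as a description. Mef2a was closest to Pum2 (r = 0.97, transcript GC 42.2%), Dennd4c and Xiap, and Mef2c was closest to Arid4a (r = 0.97, GC 44.0%), Macf1 and Tcf4. Tbx20 was closest to Prkacb (r = 0.94), Ywhab and B3glct. Tbx5 was closest to Mios (r = 0.94), Timp3 and Mia3, and Gata6 to Btf3l4 (r = 0.87), Tomm70a and Ube3a. Gata4 was closest to Nr2f6 (r = 0.88, GC 67.3%), Arhgef19 and Vtn. Nkx2-5 was closest to Unc45b (r = 0.87), Polr2e and Hspb8, and Srf to Bag2 (r = 0.83), Hspb8 and Hspb1. Hspb8, a small heat shock protein, was the gene shared by the lists of Nkx2-5 and Srf. Mef2d was closest to Ulk1 (r = 0.90), Mlxip and Ezh1, and Hand2 to Prickle3 (r = 0.78), Ddo and Arrdc2. By Spearman's rho over the uncorrected values, only Hand2 kept a gene, Prickle3, among the closest 3.

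Among the markers of cell types in the ventricle, those of macrophages and red cells all rose, and those of endothelium passed the test about as often as all genes did (33.5%). All 10 cardiomyocyte markers were present, from Ttn with a mean of 102 to Myl2 with 11342 FPKM, as the label of left ventricle implies, although the extraction text of the labels names "CRC cells". Of 10 cardiomyocyte markers 1 rose (Mybpc3) and 4 fell (50% called, median -0.15), or 2 and 2 with a median of 0.05 under quantile normalization. Their summed level was 37430 to 47856 FPKM in the control group and 29097 to 41152 in the hypertensive-LVH group. The 10 macrophage markers all rose, from a summed 241 to 531 FPKM to 336 to 934 (median log2 fold change 0.61). Without samples 4 to 6, and so with fewer samples, the median was 0.48 and 1 of them passed. Of 10 fibroblast markers 5 rose and 1 fell (592 to 1731 against 1224 to 3464 FPKM summed, 60% called, median 0.44, with 1 rise, 1 fall and a median of 0.16 without samples 4 to 6). Of 10 endothelial markers 2 rose and 1 fell (963 to 1292 against 1026 to 1698, 30% called, median 0.01). All 5 red cell genes rose (56.2 to 2949 against 779 to 6443, median 1.76). No single marker gene had a mean over all samples at or below 0, although the summed atrial markers were negative in the lowest samples. Across the 24 samples, with group and set means removed, Tbx20 had r of -0.77 with the summed cardiomyocyte markers, 0.57 with those of smooth muscle and pericytes, 0.53 with endothelial and 0.65 with atrial markers. With the cardiomyocyte markers r was also negative for Mef2c (-0.66), Mef2a (-0.66), Tbx5 (-0.54), Gata6 (-0.35) and Mef2d (-0.20). It was positive for Nkx2-5 (0.58), Srf (0.51), Gata4 (0.39) and Hand2 (0.11). With the atrial markers Tbx5 had 0.67. The part of cell composition in the change of Tbx20, Nkx2-5 and Mef2d was not tested.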

How the data were processed

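Per the labels and the study's methods, RNA of mouse left ventricle was selected with oligo(dT) and sequenced with paired ends. The authors deposited 1 FPKM value per gene and sample, listed by symbol, and the submitters' processing notes name Bowtie2, HISAT and RSEM, while the genome build is not given in the sources used here. The deposited values are adjusted, a step the methods do not name: samples were joined into 4 sets where at least 100 genes were tied, and for 13748 of 14912 genes (92.2%) the scale in each set was recovered from steps of 0.01 FPKM, which gives differences within sets. The design foresaw plain FPKM, and the test on a log scale was kept. In the recovered form a group difference of each factor was set aside before the scaling (7.51 FPKM for Tbx20, -7.88 for Nkx2-5 and -4.19 for Mef2d). The adjustment thus used the groups. Replicates are separate biological samples per the study's methods, so p-values measure the spread between mice after that adjustment, not the spread in plain FPKM. They may therefore be too small, by an amount that was not tested. The main fit called 33.5% of genes, the fit with the set as a term 27.9%. Before the adjustment it was 25.9% of 13268 genes.

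Negative values were set to 0, log2(FPKM + 1) was used, and the 14026 genes whose mean reached 0.1 entered limma 3.58.1 in R 4.3.3 (intensity trend, group term, 12 against 12). Ratios used a two-sided permutation test with 100000 resamples, and 5 ratios were tested. Values printed as FPKM keep negative values. The rest was run in Python 3.11.15 (scipy 1.17.1, numpy 2.4.6, pandas 2.3.3). The recovery, limma and the slopes were tested on simulated data. Positions, lengths and GC are from GENCODE vM21 and promoters from RefSeq, both on GRCm38.

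The 10 members and all gene lists were chosen with earlier results of these data known. Named genes are the members, up to 3 genes per list with the largest change in each direction past the test, and the 3 genes most like each member. The alternatives were other pseudocounts, filters and scalings, a rank test, a replicate block, and leaving out each sample or set. The slopes as covariates, the exact exchange of labels within sets for single factors, the gene lists without samples 1 to 3, 7 to 9 or 10 to 12 and the fit without control 2 and ANG II 6 were added after seeing the data.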

Additional observations from a re-analysis of the deposited data

How the results depend on the processing

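Genes past an adjusted p under 0.05 numbered 4697 (4039 to 5159 in the fits that left out 1 sample each) and DEGs 831 (715 to 979). By the adjusted p alone the 10 factors gave 3 (1 to 3) and the gene lists 45 (42 to 53). Fits with the replicate number as a block gave 2824 genes, 1 factor (Tbx20, adjusted p = 0.0244, with 0.111 for Nkx2-5 and 0.108 for Mef2d) and 29 list genes, but the samples share only a number: same-numbered samples had correlations of their deviations of -0.57 to 0.01 over 12 pairs, 0 of them over 0.1 and 0 highest with their own number. The set as a term left 1 factor, the values before the adjustment 1 factor and 29 list genes, leaving out control 2 and ANG II 6 1 factor, and leaving out samples 4 to 6 left 2802 genes, 552 DEGs and 0 factors (1 at an unadjusted p under 0.05). A pseudocount of 0.1 gave 1489 DEGs.

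Within the sets of 3 against 3, limma called 0 genes in samples 1 to 3 (1230 at an unadjusted p under 0.05), with 0 DEGs, 0 factors (1 unadjusted) and 0 list genes. Samples 4 to 6 gave 3804 genes, 2696 DEGs, 2 factors (Tbx20 and Hand2) and 52 list genes. Samples 7 to 9 gave 608 genes, 536 DEGs, 0 factors (3 unadjusted) and 13 list genes. Samples 10 to 12 gave 21 genes, 21 DEGs, 0 factors (1 unadjusted) and 1 list gene. The group difference in the log2 ratio of Mef2a to Mef2d was 0.18, 0.11 and 0.17 without samples 1 to 3, 4 to 6 and 10 to 12 (permutation p = 0.0701, 0.236 and 0.142). Without samples 7 to 9 that of Mef2a to Mef2c was 0.13 (permutation p = 0.0401) and that of Gata4 to Gata6 was -0.34 (permutation p = 0.0304).

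Changes of sign, the cause of which was not tested, were these. In samples 7 to 9 the log2 difference was 0.14 for Gata4, -0.0234 for Gata6, 0.18 for Nkx2-5, -0.30 for Mef2a, 0.19 for Srf and -0.21 for Hand2. In samples 10 to 12 it was -0.0802 for Gata6, 0.0043 for Mef2c, -0.25 for Tbx5 and -0.28 for Hand2, in samples 1 to 3 -0.11 for Tbx5 and in samples 4 to 6 0.18 for Mef2c. Leaving out samples 1 to 3 gave -0.0076 for Hand2, leaving out samples 4 to 6 gave 0.0161 for Srf, -0.0756 for Tbx5 and -0.0286 for Hand2, and leaving out samples 7 to 9 gave 0.0584 for Mef2c. With the GC and length slopes Mef2a was -0.0267, Srf 0.0146 and Tbx5 -0.0507, with the set added -0.0269, 0.0147 and -0.0514, and before the adjustment the difference for Tbx5 was -1.68%. Leaving out 1 sample moved Mef2c from -0.0636 to 0.0159 and Tbx5 from -0.0012 to 0.20. Tbx20 kept its direction under every alternative run, and lost its call without samples 4 to 6 and within 3 of the 4 sets. Without read counts, the depth behind each value is unknown.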
